A study of Mus with 15 samples.

Results

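To compare H2Aub in the thalamus of mice with and without Maged1 in the absence of cocaine, the 6 peak lists of saline-injected mice were analysed. They were 3 lists of control mice (Maged1 Loxp, written WT as in the sample titles) and 3 lists of Maged1-cKO mice, out of 11 H2Aub lists and 15 samples in the series. H2Aub is histone H2A with a single ubiquitin on a lysine of its C-terminal tail (H2AK119ub1), and it was profiled by ChIPmentation, in which Tn5 transposase inserts the sequencing adapters into chromatin bound by the antibody. Both groups received saline for 3 days and then saline vehicle for 5 more days, at an age of 2 to 4 months. The cKO mice carried a floxed Maged1 allele together with Cre driven by the Vglut2 promoter, so the deletion was limited to cells with that promoter active, mainly glutamatergic neurons. The controls carried the floxed allele without Cre. Each list came from pooled thalami, 3 to 4 per sample in the labels and with a lower minimum in the methods of the study, which also describe hemizygous males. The study reports from flow cytometry that most cells of the dissected thalamus were Vglut2 cells. Other cells of the tissue, such as glia and vascular cells, keep Maged1. A peak list of bulk tissue cannot tell fewer cells with the mark from less mark per cell. The study describes the replicates of a condition as biologically independent pools, and the labels do not say which animals went into which list. No peak list can check the deletion: Maged1 (mm10 chrX:94535474-94542025) had no peak in any of the 6 libraries.

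H2Aub is placed by the RING-type ubiquitin ligases of Polycomb repressive complex 1 (PRC1), and it marks genes that are kept silent in a tissue, above all transcription factor genes of embryonic patterning. Polycomb repressive complex 2 (PRC2) places H3K27 trimethylation at many of the same genes. Maged1 is a MAGE family scaffold protein, and USP7 is a deubiquitinase that associates with some PRC1 complexes and is a binding partner of Maged1. In an adult brain region the mark is therefore found at homeobox and other patterning genes that are off in that region, while genes in steady use by all cells, such as ribosomal protein genes, largely lack it.

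A gene was counted as carrying H2Aub in a library when at least 1 bp of its body or of the 5 kb on either side lay under a peak. Its length under peaks was the number of such bases. In WT, 5696, 3297 and 3639 of the 21887 protein-coding genes had a peak in replicates 1, 2 and 3. In cKO the numbers were 12881, 3436 and 2756. The list of cKO replicate 1 stood apart from the other 5: it held 80713 peaks where they held 7271 to 23748, its median peak width was 198 bp against 242 to 367 bp, and its highest fold enrichment over input was 52.6 against 5.98 to 12.2. It reached 92.8% of genes longer than 100 kb, which the others reached in 22.8 to 45.4%. The lists give no read numbers, so the sequencing depth behind them is unknown and its part in these differences was not tested. Values are therefore given per library, and calls and tests with and without this library.

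**Figure D1:**
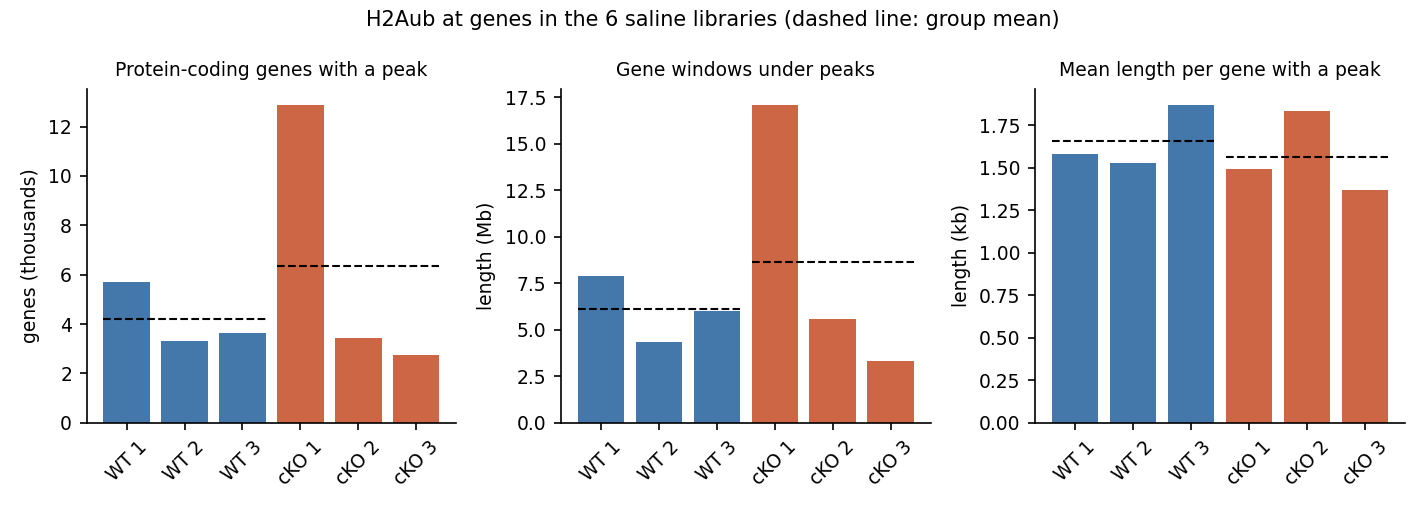
Protein-coding genes with a peak (in units of 1000), gene windows under peaks (Mb) and mean length under peaks per gene with a peak (kb) in the 6 saline libraries; bars are libraries and dashed lines are group means. cKO replicate 1 had 12881 genes with a peak, against 2756 to 5696 in the other 5, while the mean length per gene was between 1366 and 1869 bp in all 6.

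The number of genes with a peak was 4211 ± 1298 in WT and 6358 ± 5660 in cKO (mean ± SD, n = 3 each), a log2 difference of 0.28 ± 0.74 (SE, two-sided exact permutation p = 0.90, with 0.10 the smallest p this design allows). Without cKO replicate 1, the cKO mean was 3096 ± 481 (n = 2) and the difference was -0.41 ± 0.29 (exact permutation p = 0.50). The length of gene windows under peaks was 7.9, 4.37 and 6.03 Mb in WT and 17.1, 5.56 and 3.32 Mb in cKO, a log2 difference of 0.20 ± 0.74 (exact permutation p = 0.90). It turned to -0.46 ± 0.45 without cKO replicate 1 (exact permutation p = 0.40). Leaving out WT replicate 2 instead gave -0.02, so that the sign of this difference rested on single libraries. Genes with a peak carried a similar length in both groups, 1658 ± 184 bp in WT and 1562 ± 241 bp in cKO (n = 3 each), with a log2 difference of -0.09 ± 0.15 (exact permutation p = 0.50) and of -0.06 ± 0.23 without cKO replicate 1 (exact permutation p = 0.90). No difference between the genotypes in the extent of H2Aub at genes was detectable with these libraries.

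Most genes marked in every WT library were also marked in cKO. Of 2280 genes with a peak in all 3 WT libraries, 1522 (66.8%) had one in all 3 cKO libraries, and 1526 (66.9%) had one in both cKO libraries other than replicate 1. At the other end, 8543 genes had no peak in any of the 6 libraries, and 6396 had a peak in cKO replicate 1 and nowhere else. Of the 13344 genes with a peak in any of the 6, 15 (0.112%) had one in all 3 cKO and no WT library, and 5 (0.0375%) had one in all 3 WT and no cKO library. Without cKO replicate 1, 6948 genes had a peak in any library, and these numbers became 18 (0.259%) and 227 (3.27%). Leaving out a library admits genes by construction: the 15 genes became 98 without WT replicate 1, 27 without WT replicate 2, 35 without WT replicate 3, 188 without cKO replicate 2 and 233 without cKO replicate 3. The 5 genes became 9, 24 and 19 without WT replicate 1, 2 or 3, and 12 without cKO replicate 2. Of the 227 genes, 222 carried a peak in cKO replicate 1. The plot of genes by number of libraries shows that the genes present in WT and absent from cKO were few with all 3 cKO libraries and many with only 2.

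**Figure D2:**
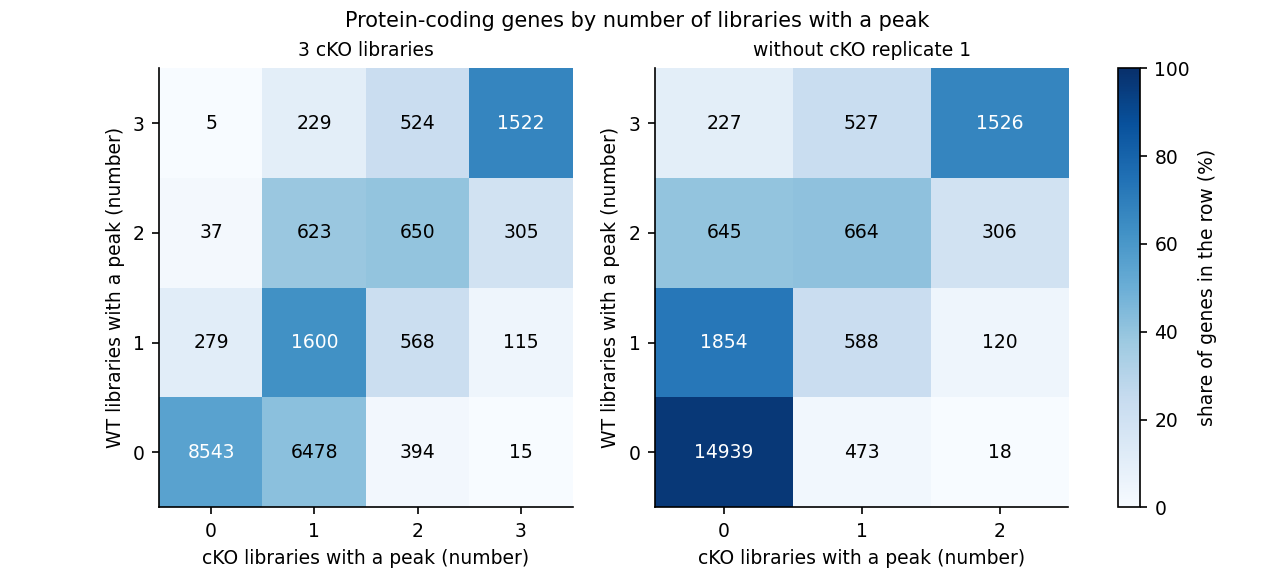
Number of protein-coding genes by the number of WT (vertical axis) and cKO (horizontal axis) saline libraries in which they had a peak, with all 3 cKO libraries (left) and without cKO replicate 1 (right); the shade is the share of the row in %. The corners that oppose the genotypes held 15 and 5 genes with all libraries, and 18 and 227 without cKO replicate 1.

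The genes with a peak in every cKO and no WT library included Srrm4, a splicing factor of neuronal microexons, Sorcs3, a sorting receptor of neurons, and Limch1, a regulator of actomyosin. Srrm4 (mm10 chr5:116439268-116592562) had no base under a peak in WT and 5149, 178 and 151 bp in cKO replicates 1, 2 and 3. Limch1 had 3564, 260 and 210 bp. In both genes nearly all of the cKO length lay in replicate 1, where Srrm4 alone held 20 peaks, against 1 peak in each of cKO replicates 2 and 3. Other members of the list were more even across cKO libraries. Tyw3, an enzyme of tRNA modification, had 670, 511 and 454 bp, and Fancc, of the Fanconi anaemia DNA repair pathway, had 627, 862 and 366 bp. Slc11a2, an iron transporter, had 1166, 410 and 216 bp, and Wwtr1, a coactivator of the Hippo pathway also known as TAZ, had 860, 223 and 260 bp. Gsdma, a pore-forming gasdermin, had 1070, 501 and 347 bp.

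The peaks behind these calls were short and weak in the libraries other than cKO replicate 1. Over the 12 genes of this list with the largest mean length, cKO replicates 2 and 3 held 126 to 862 bp per gene, and the highest fold enrichment at each gene was between 3.21 and 5.45. In 6 of these 24 gene and library pairs the lowest q of a peak was above 0.05. Over all peaks of cKO replicates 2 and 3 the share with such a q was 25.5 and 32.9%. The median fold of all their peaks was 3.57 and 3.93, so that the peaks at these genes were not unusual for their lists. The peaks also lay at different places of the same gene: a base under a peak in all 3 cKO libraries was found in 2 of the 15 genes, with 57 bp at Tyw3 and 121 bp at Spata31d1b, and a base shared by replicates 2 and 3 was found in 5 of the 15. Srrm4, Sorcs3 and Limch1 are long genes (153 to 599 kb), and none of these 3 had a shared base.

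The 5 genes with a peak in every WT and no cKO library were Lta (lymphotoxin alpha, a cytokine), Myh13 (a myosin heavy chain of the eye muscles), Got1l1 (related to aspartate aminotransferase), Adrb3 (a beta-adrenergic receptor) and Phf7 (a histone reader of male germ cells). Myh13 had 695, 689 and 498 bp under peaks in WT replicates 1, 2 and 3 (627 ± 112 bp, SD, n = 3). Lta had 380, 548 and 1063 bp, Got1l1 524, 1036 and 246 bp, Adrb3 194, 384 and 411 bp, and Phf7 575, 104 and 173 bp. Got1l1 and Adrb3 are neighbours on chromosome 8 whose windows overlap, so that the 5 genes lay in 4 separate windows. None of the 5 had a base under a peak in all 3 WT libraries.

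A comparison of lengths also takes in the genes marked in both genotypes. Lengths per library were compared without a test per gene, since the smallest p of an exact permutation test is 0.10 here. In 72 genes (0.54% of 13344) every cKO library had more length under peaks than every WT library, and in 81 genes (0.607%) every WT library had more than every cKO library. The windows of some of these genes overlap, and the lists lay in 68 and 70 separate windows. Without cKO replicate 1 the numbers were 84 (1.21% of 6948) and 699 (10.1%). The genes called with all libraries are called without it by construction, and the further calls are those that this library alone had removed. Other omissions also moved these counts by more than 1.5 times, to 268, 131, 407 and 874 genes longer in cKO without WT replicate 1, WT replicate 3, cKO replicate 2 and cKO replicate 3, and to 299, 151 and 230 genes longer in WT without WT replicate 2, WT replicate 3 and cKO replicate 2. The split between the directions depended on the scale: with length as a share of the total length of the library it was 123 in cKO and 276 in WT, and when each list was reduced to the same number of peaks it was 63 and 337. A gene can be longer in every WT library only if it is marked in all 3 of them. Of the 2280 such genes, the 81 were 3.55%, and the 699 without cKO replicate 1 were 30.7%. Families are set against these shares, since 6396 of the 13344 genes had a peak in cKO replicate 1 alone. Among the 1522 genes with a peak in all 6 libraries, 10 were longer in every cKO library and 51 were longer in every WT library.

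Cxcr4 and Fgf3 had similar lengths in all 3 cKO libraries. Cxcr4, a chemokine receptor of migrating neurons and immune cells (mm10 chr1:128588199-128592299), had 1690, 326 and 704 bp in WT and 2542, 3030 and 2546 bp in cKO. The mean was 907 ± 704 bp in WT and 2706 ± 281 bp in cKO (SD, n = 3 each), so that the cKO mean was 2.98 times the WT mean, and 3.08 times without cKO replicate 1. Fgf3, a growth factor of inner ear and tail development (mm10 chr7:144838612-144843348), had 1361, 648 and 1427 bp in WT and 3017, 2854 and 3824 bp in cKO, 2.82 times the WT mean and 2.92 times without cKO replicate 1. Scnn1a, a subunit of the epithelial sodium channel, had 1190, 421 and 495 bp in WT and 3529, 1857 and 1572 bp in cKO (3.3 and, without replicate 1, 2.44 times the WT mean). At Carmil1, a regulator of actin capping, 165, 187 and 127 bp stood against 3865, 406 and 547 bp. Its ratio was 10.1 with all libraries and 2.98 without cKO replicate 1, and the ratio of Calcoco2, an autophagy receptor, went from 2.92 to 1.46. Pip4k2a, Dok4 and Iqgap2 completed the 8 genes with the largest ratios in this direction. Their lengths are in the plot of genes marked in all 6 libraries.

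**Figure D3:**
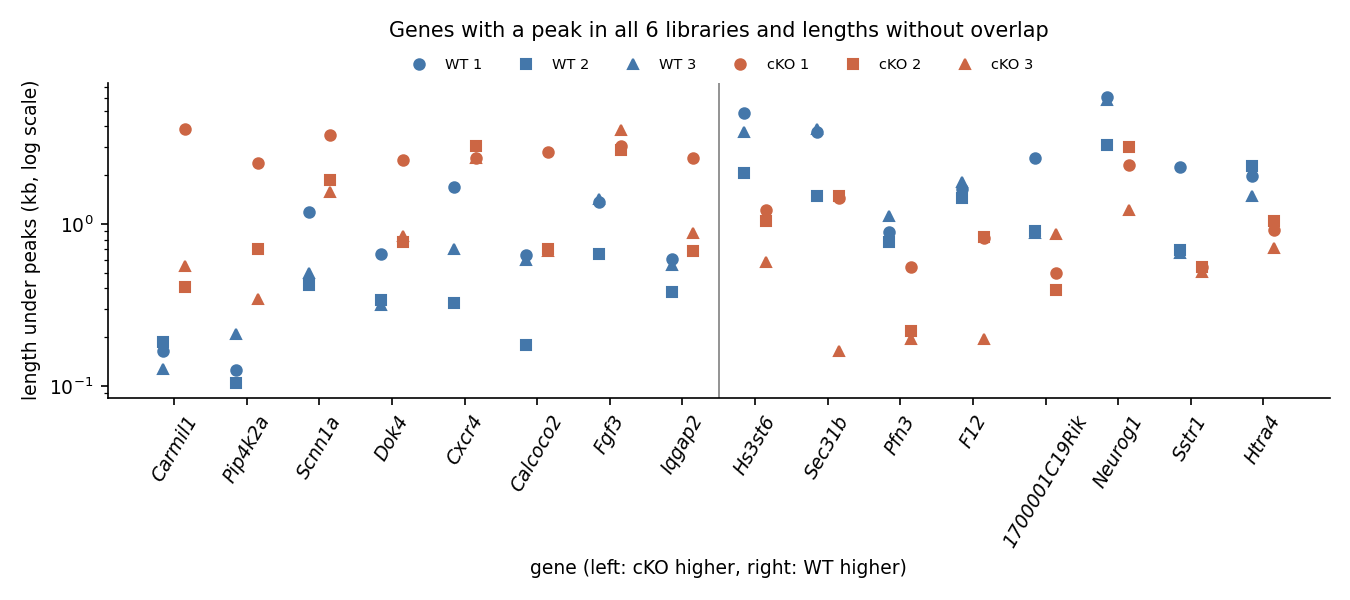
Length under peaks (kb, log scale) in each of the 6 saline libraries for the 8 genes per direction with the largest ratio of group means among genes with a peak in all 6 libraries and no overlap between genotypes; circles, squares and triangles are replicates 1, 2 and 3. Cxcr4 and Fgf3 show cKO values of 2542 to 3824 bp that lie close together, and Carmil1 shows a cKO replicate 1 (3865 bp) far above replicates 2 and 3.

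In the other direction, Hs3st6, a sulfotransferase of heparan sulfate (mm10 chr17:24752988-24758690), had 4855, 2050 and 3686 bp in WT and 1227, 1042 and 584 bp in cKO. The WT mean was 3.71 times the cKO mean, and 4.34 times without cKO replicate 1. Neurog1, a proneural bHLH factor (mm10 chr13:56250478-56252180), had 6078, 3061 and 5807 bp in WT and 2321, 2984 and 1224 bp in cKO, with the highest cKO value just below the lowest WT value, and a ratio of 2.29 (2.37 without cKO replicate 1). Sec31b, of the COPII vesicle coat, had 3676, 1488 and 3826 bp against 1455, 1479 and 164 bp, so that WT replicate 2 and cKO replicate 2 were nearly equal. F12, a coagulation factor, had 1648, 1455 and 1817 bp against 823, 834 and 195 bp, and its neighbour Pfn3, a profilin of testis, had 889, 772 and 1115 bp against 543, 219 and 195 bp. Htra4, a serine protease, had 1987, 2288 and 1492 bp against 922, 1039 and 711 bp. Sstr1, a somatostatin receptor, had 2245, 692 and 664 bp against 542, 543 and 506 bp. The last of the 8 was 1700001C19Rik, with 2544, 899 and 877 bp against 495, 390 and 869 bp. At these genes cKO replicate 1 stood below every WT library, as the call requires, although it had the most length under peaks over all genes.

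The windows of 4 of these genes show where the length lay. At Hs3st6, WT replicates 1 and 3 had peaks of 4078 and 3354 bp that crossed the lower-coordinate end of the gene, where the widest peak of a cKO library was 782 bp. At Neurog1 a peak began inside the gene in all 6 libraries. It was 3100, 2394 and 3500 bp wide in WT and 1717, 806 and 1103 bp wide in cKO. At Fgf3 the widest cKO peaks were 1716 to 2924 bp and the widest WT peaks 499 to 1170 bp, and all of them lay near the lower-coordinate end of the gene. The peaks of cKO replicate 1 had the highest fold enrichment at each of the 4 genes, 7.61 at Hs3st6, 8.96 at Neurog1, 7.57 at Fgf3 and 4.57 at Cxcr4, so that at Hs3st6 and Neurog1 this library combined a high fold with a short length.

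**Figure D4:**
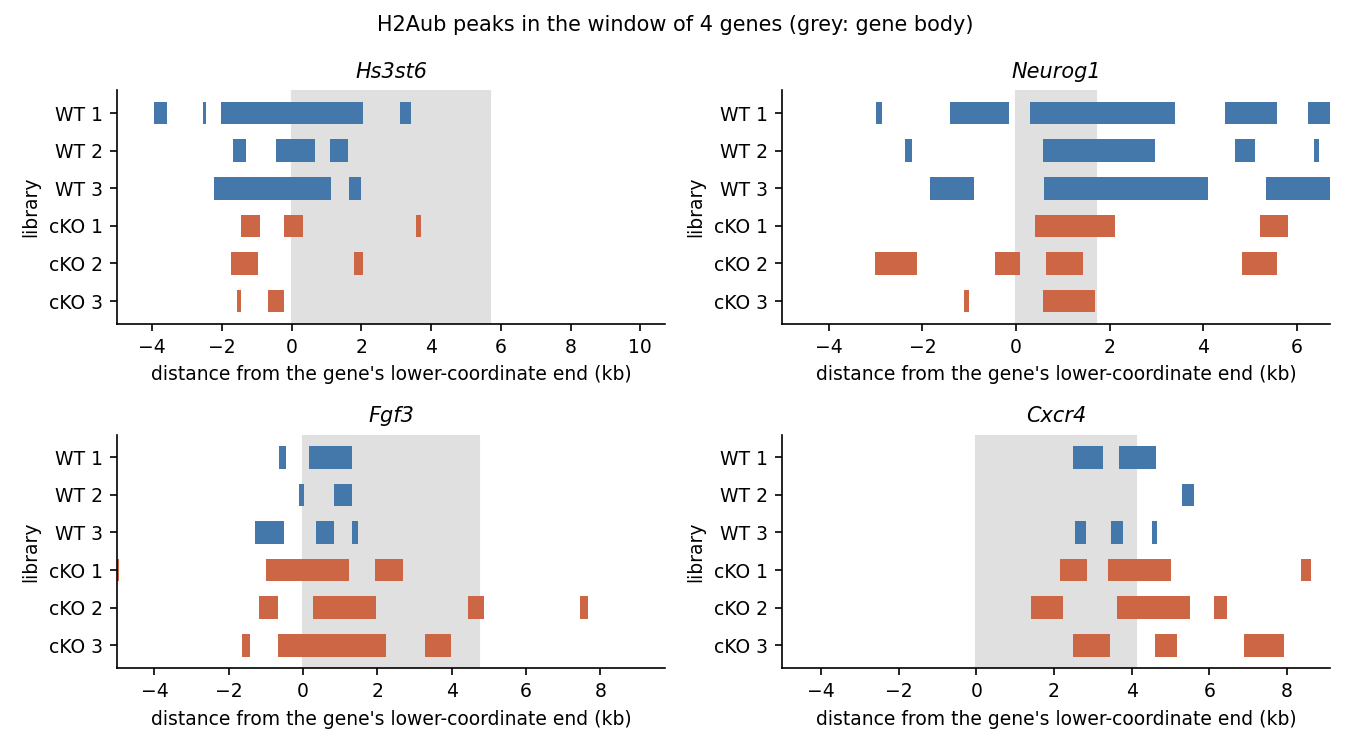
Peaks (bars) of the 6 saline libraries in the window of Hs3st6, Neurog1, Fgf3 and Cxcr4; the horizontal axis is the distance in kb from the lower-coordinate end of the gene, grey marks the gene body, and the window ends 5 kb outside it. The WT bars cover more of the window than the cKO bars at Hs3st6 and Neurog1, and the cKO bars cover more at Fgf3 and Cxcr4.

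The 227 genes with a peak in every WT library and in neither cKO replicate 2 nor 3 were led by Sh2d3c, an adaptor protein, and Otud7a, a brain deubiquitinase. Sh2d3c had 2192, 1504 and 3516 bp in WT, none in cKO replicates 2 and 3, and 6570 bp in cKO replicate 1, the highest of the 6. Otud7a had 2663, 1414 and 1275 bp in WT and 2269, 0 and 0 bp in cKO. Chrna3, a nicotinic receptor subunit of the habenula, had 2078, 1102 and 1507 bp in WT and 1823, 0 and 0 bp in cKO. Tnfrsf1a, a TNF receptor, differed from these 3 in that cKO replicate 1 was also low, with 3301, 703 and 1285 bp in WT and 434, 0 and 0 bp in cKO. Whether these genes carry H2Aub in the cKO thalamus therefore depends on which cKO library is read. In the direction of more cKO libraries, leaving out replicate 1 added 3 genes: Cav3, a muscle caveolin, with 361 and 319 bp, and Gm13271 and Gm13286, neighbours whose windows overlap.

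A linear model over all genes was fitted to log2 of the length plus 100 bp with limma, for the 6587 protein-coding genes with a peak in at least 2 of the 6 libraries. Gse1 was called higher in cKO (1 gene, 0.0152%), and no gene was called higher in WT (0%). At an unadjusted p under 0.05 there were 7 and 21 genes. The median log2 difference over the tested genes was 0.30. It was -0.04 with length as a share of the library total, -0.32 with equal numbers of peaks and -0.55 without cKO replicate 1, so that the sign of a change at the middle of all genes depended on the scale and on this library. Gse1 (mm10 chr8:120228501-120581383), which encodes a coiled-coil protein found with histone deacetylases, had 17163, 5769 and 1787 bp in WT and 50311, 11896 and 5481 bp in cKO, so that the groups overlapped. Its log2 difference was 1.38 ± 0.31 (limma SE, Benjamini-Hochberg adjusted p = 0.0436). That SE came from a variance trend shared by all genes, to which the fit moved every gene in full, and the SE from the 6 values of Gse1 alone was 1.31. With each gene's own variance, an alternative chosen after seeing the data, Gse1 had a limma adjusted p of 1 and no gene was called. Without cKO replicate 1, 4621 genes were tested, of which 0 (0%) were called higher in cKO and 2 (0.0433%) in WT. They were Prdm16 (log2 difference -0.68 ± 0.15, limma adjusted p = 0.0271) and Zfhx3 (-2.22 ± 0.51, limma adjusted p = 0.0271), and the SE from their own values was 0.63 and 0.64. Zfhx3, a homeobox factor, was named after its values were seen, and it had 8883, 4057 and 9573 bp in WT and 2103 and 960 bp in cKO replicates 2 and 3, with 20518 bp in cKO replicate 1. Prdm16, a zinc finger factor of neural progenitors and brown fat, had 49639, 24036 and 61265 bp in WT and 61407, 36175 and 18759 bp in cKO, so that its groups overlapped. With each gene's own variance in these 5 libraries Prdm16 had a limma adjusted p of 0.858 and Zfhx3 of 0.615. That fit instead called 3 genes higher in cKO and 0 in WT, namely Slc25a26, Tyw3 and Cav3, named after their values were seen. All 3 were at 0 in every WT library, and cKO replicates 2 and 3 were close together, with 127 and 126 bp at Slc25a26, 511 and 454 bp at Tyw3, and 361 and 319 bp at Cav3. Their own SE of 0.0024, 0.053 and 0.051 on the log2 scale thus came from the difference between cKO libraries alone. The direction of the limma calls without cKO replicate 1 turned with the variance used.

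The next lowest p-values toward cKO were those of Slit1, a secreted guidance cue, Ece1, Zbtb16 and Cmip, and toward WT those of Hoxa3, Hoxb3, Prdm16, Atoh8 and En1, all with a limma adjusted p of 1. Slit1 had 5966, 245 and 437 bp in WT and 11085, 5911 and 1944 bp in cKO, and Zbtb16, a zinc finger repressor, had 1351, 0 and 0 bp in WT and 8137, 1373 and 858 bp in cKO. In both genes WT replicate 1 lay within the range of the cKO libraries. Hoxa3 (mm10 chr6:52169059-52213067) had 48550, 39764 and 50205 bp in WT and 29347, 48076 and 33982 bp in cKO, and Hoxb3 had 44486, 36903 and 40300 bp in WT and 30118, 37202 and 28606 bp in cKO.

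Gene families were then followed by the number of members with a peak and by their length in each library. The 243 members of the developmental transcription factor families, which set up body axes and cell fates in the embryo, formed the core of the H2Aub pattern in both genotypes. Of these, 212, 200 and 195 had a peak in WT replicates 1, 2 and 3 and 236, 196 and 193 in cKO, and 181 had one in all 6 libraries. Their windows held 21.6, 30.6 and 28% of all gene length under peaks in WT and 8.55, 28.5 and 33.5% in cKO, where the low share belonged to replicate 1. None of the 243 was marked in every library of one genotype and absent from the other, where the shares over all genes were 0.112 and 0.0375%. All 39 Hox genes, all 12 LIM homeobox genes, all 6 Iroquois genes and all 8 Dlx and Gsx genes had a peak in every library. What varied at these families was the length under peaks.

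**Figure D5:**
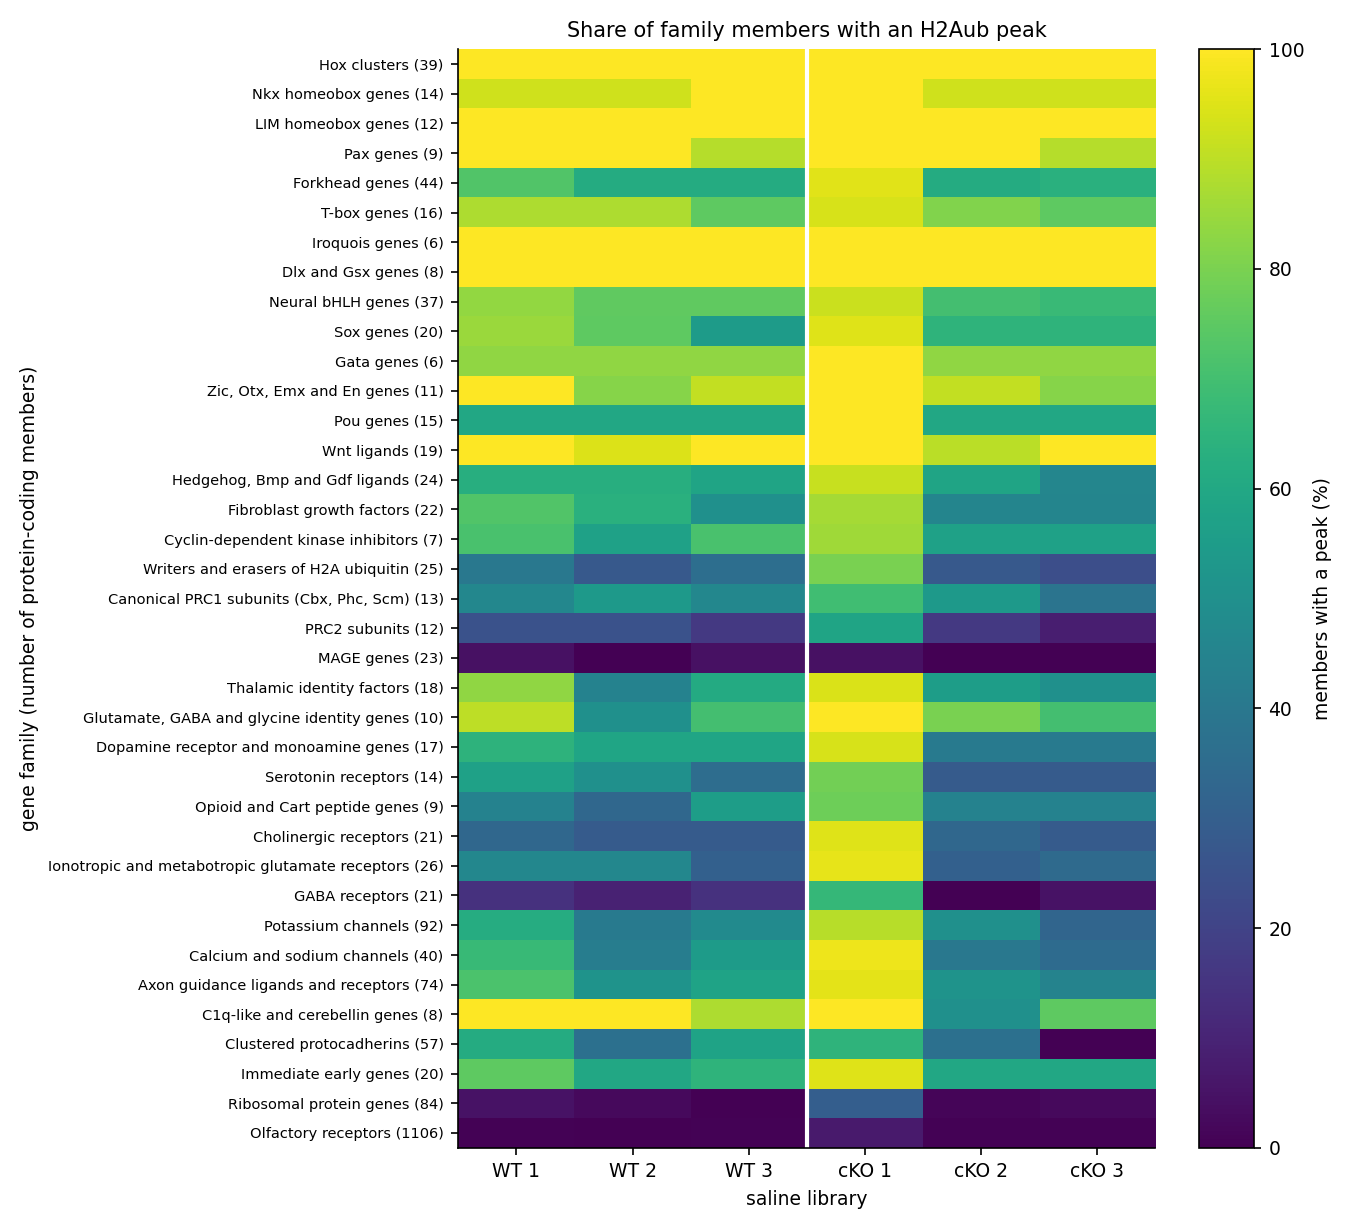
Share of the protein-coding members of the gene families shown that had a peak (%, colour scale) in the 6 saline libraries, with the number of members in brackets; the white line separates WT from cKO. The Hox, LIM and Iroquois families were at 100% in every library, ribosomal protein genes and olfactory receptors were near 0 outside cKO replicate 1, and the neuronal receptor and channel families had their highest share in cKO replicate 1.

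The summed length of most developmental factor families was lower in cKO, by amounts close to those among replicates. With all libraries the cKO mean was lower in 17 and higher in 25 Forkhead genes, and in 7 and 12 Sox genes. It was lower in 5 and higher in 10 Pou genes, and in 5 and 6 of the Zic, Otx, Emx and En genes. In the other families more members were lower. Without cKO replicate 1 these counts were 28 and 6, 15 and 3, 6 and 3, and 8 and 3. Hox windows had 368, 302 and 375 kb under peaks in WT and 256, 364 and 261 kb in cKO, so that cKO replicate 2 lay among the WT libraries. Iroquois windows had 49.8, 39.6 and 44.9 kb in WT and 41.8, 41.9 and 25.6 kb in cKO. Of the 43 families and marker lists, 10 had a lower summed length in cKO under each of the settings for peaks, windows, scale and omitted libraries. They were the Hox, Nkx, LIM, T-box, Iroquois, Dlx and Gsx, and Gata families, the group of Zic, Otx, Emx and En genes, the C1q-like and cerebellin genes, and the identity genes of glutamate, GABA and glycine neurons. The summed length of the olfactory receptors and of the microglia markers was higher in cKO in all 11 settings, and that of the ribosomal protein genes in the 10 settings that gave a value. The log2 ratio of cKO to WT for the Hox genes ran from -0.57 to -0.16 over these settings, and that of the Iroquois genes from -0.79 to -0.10. It reached -0.01 for the Zic, Otx, Emx and En genes, -0.07 for the LIM and -0.09 for the Nkx genes. A lower summed length was common in some settings. It was found in 38 of 41 families without cKO replicate 1, 38 of 42 with equal numbers of peaks and 34 of 43 as a share. In the main setting it was found in 20 of 43. The median limma difference over the developmental factors was -0.19 (217 genes tested), against 0.30 over all tested genes, and without cKO replicate 1 it was -0.23 (208 genes), against -0.55. These families were therefore below the middle of all genes with cKO replicate 1 and above it without.

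Of the developmental factors, 12 were longer in every WT library than in every cKO library and 1 was longer in every cKO library. The 12 were 6.38% of the 188 members marked in all 3 WT libraries, against 3.55% of all genes so marked, and the 1 was 0.42% of the 238 members with a peak, against 0.54%. When cKO replicate 1 was left out the numbers were 20 (10.6%, against 30.7%) and 1 (0.457%, against 1.21%). The share toward WT was thus above the background with that library and below it without. En1, a homeobox gene of the midbrain and hindbrain (mm10 chr1:120602487-120607991), had 13947, 12981 and 13669 bp in WT and 8985, 10168 and 7629 bp in cKO, and the WT mean was 1.52 times the cKO mean with and without cKO replicate 1. Irx3, an Iroquois factor that takes part in early patterning of the thalamus, had 10577, 8671 and 7764 bp in WT and 6564, 5650 and 3712 bp in cKO (ratio 1.7, and 1.92 without cKO replicate 1). Irx5, its neighbour in the same cluster, had 10242, 7960 and 9801 bp against 6375, 7571 and 4692 bp. At En1 and Irx3 the lowest WT library was above the highest cKO library by more than 1 kb.

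The mesoderm factor T (brachyury) had 3429, 3176 and 3170 bp in WT, 3 values that were close together, and 2751, 1184 and 943 bp in cKO. Hoxd1, at the 3′ end of its cluster, had 3436, 2884 and 3136 bp in WT and 2544, 944 and 1469 bp in cKO (ratio 1.91, and 2.61 without cKO replicate 1). Sox2, a factor of neural stem cells that glia retain, had 1955, 1893 and 2716 bp in WT and 1516, 874 and 0 bp in cKO. Gata2, a factor of midbrain GABA neurons and blood, differed less, with 16336, 12997 and 14568 bp against 12224, 12071 and 11515 bp. Hoxc12, Tbx3, Foxc1, Foxd1 and Neurog1 completed the 12. The exception was Sox8, a glial and gonadal factor, with 0, 112 and 0 bp in WT and 2530, 223 and 287 bp in cKO.

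Secreted signals of the embryo are another known class of Polycomb targets. Wnt ligands had a peak in 19, 18 and 19 of 19 members in WT and 19, 17 and 19 in cKO. No Wnt gene separated the genotypes with all libraries, near the 3.55% of all genes marked in every WT library. Without cKO replicate 1, 6 of the 18 so marked (33.3%) were longer in WT, against 30.7%. Wnt4 had 2905, 1853 and 1379 bp in WT and 4229, 0 and 533 bp in cKO, and Wnt2 had 1297, 337 and 760 bp in WT and 3184, 0 and 242 bp in cKO. In both genes cKO replicate 1 was the highest of the 6 libraries and the other cKO libraries were the lowest. Fibroblast growth factors were marked in 16, 14 and 11 of 22 members in WT and 19, 10 and 10 in cKO. Fgf3 was longer in cKO (1 of 20 members with a peak, 5%, against 0.54% of all genes), and 3 of the 10 marked in every WT library (30%, against 30.7%) were longer in WT when cKO replicate 1 was left out. Hedgehog, Bmp and Gdf ligands were marked in 15, 15 and 14 of 24 members in WT and 22, 14 and 11 in cKO, and 3 of 12 (25%) were longer in WT when that library was left out. Cdkn2a, a cell cycle inhibitor and a classical Polycomb target, had 17482, 11387 and 16801 bp in WT and 12247, 20465 and 10860 bp in cKO, with the highest and the lowest value both in cKO.

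The genes of the H2Aub machinery itself were marked in part. Among 25 genes that write or erase the mark, 10, 7 and 9 had a peak in WT and 20, 7 and 6 in cKO. None of these separated the genotypes with all libraries, and 3 of the 7 marked in every WT library (42.9%, against 30.7% of all genes) were longer in WT when cKO replicate 1 was left out. Usp7, which encodes the deubiquitinase that binds Maged1, had no peak in 5 libraries and 616 bp in cKO replicate 1, and Rnf2, the catalytic RING subunit of PRC1, had 264 bp in the same library only. Bmi1, a PRC1 subunit, had 3979, 2653 and 2062 bp in WT and 3129, 3160 and 1883 bp in cKO. A list of 13 genes held canonical PRC1 subunits and related MBT repeat proteins. Of its 9 members with a peak, 1 (11.1%) was longer in cKO, against 0.54% of all genes. Of the 5 marked in every WT library, 1 (20%) was longer in WT, against 3.55% of all genes so marked. Without cKO replicate 1 the shares were 14.3% of 7 members in cKO, against 1.21%, and 20% of 5 in WT, against 30.7%. Cbx7, a reader of H3K27 trimethylation, had 809, 183 and 0 bp in WT and 2615, 1039 and 829 bp in cKO, 4.52 times the WT mean and 2.82 times without cKO replicate 1. Sfmbt2, an imprinted gene of the MBT repeat proteins, was longer in WT, with 3729, 3342 and 3710 bp against 2033, 2094 and 2328 bp (1.67 times the cKO mean, 1.63 without cKO replicate 1). Both genotypes were tight at Sfmbt2, and cKO replicate 1 did not stand apart there. Jarid2, a PRC2 cofactor, had 1399, 731 and 321 bp in WT and 2962, 0 and 0 bp in cKO. Of 23 MAGE genes, 1, 0 and 1 had a peak in WT and 1, 0 and 0 in cKO.

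The genes C1ql3, Hopx and Scml4, which the study picked from these samples, gave no separation of the genotypes after saline with all libraries, and C1ql3 was longer in every WT library when cKO replicate 1 was left out. C1ql3, a secreted synapse organiser, had 469, 325 and 387 bp in WT and 983, 0 and 128 bp in cKO. Hopx, an atypical homeodomain protein, had 1501, 404 and 1312 bp in WT and 1328, 1450 and 0 bp in cKO. Scml4, related to Polycomb group proteins of the Scm family, had 1331, 144 and 858 bp in WT and 3205, 1735 and 955 bp in cKO. At Scml4 a single WT library overlapped with cKO, and the cKO mean was 2.53 times the WT mean (1.73 without cKO replicate 1).

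C1ql3 belongs to the C1q-like and cerebellin genes, secreted proteins that bridge synapses, and the other members of this small family were also followed. All 8 members had a lower mean in cKO, with and without replicate 1. Of the 2280 genes marked in all 3 WT libraries, 45.7% had a lower mean in cKO with all libraries and 86.6% without replicate 1, so that the count is near the background without that library. A peak was found in 8, 8 and 7 of the 8 in WT and in 8, 4 and 6 in cKO, and the length summed to 21.3, 13.1 and 18.8 kb in WT (17.7 ± 4.2, SD, n = 3) and 19.7, 11.4 and 8.96 kb in cKO (13.4 ± 5.6, SD, n = 3). Cbln4 (mm10 chr2:172036336-172043466) was the member that separated the genotypes, with 1745, 860 and 787 bp in WT and 457, 0 and 324 bp in cKO, a WT mean 4.34 times the cKO mean and 6.98 times without cKO replicate 1. It was 1 of the 7 members marked in every WT library (14.3%, against 3.55% of all genes so marked). C1ql1, C1ql2, C1ql4 and Cbln1 were marked in all 6 libraries, with overlapping lengths. C1ql4 had 3326, 2554 and 3700 bp in WT and 3885, 1746 and 1044 bp in cKO. Without cKO replicate 1, 5 of the 7 members marked in every WT library (71.4%) were longer in WT, against 30.7% of all genes so marked. The family holds C1ql3, which the study had picked from these samples, so this count is not independent evidence of its direction. The median limma difference of the 8 members was -0.61, and -1.27 without cKO replicate 1, and no member passed the limma test.

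Genes that define thalamic neurons were next. Of 18 factors of thalamic identity, 15, 8 and 11 had a peak in WT and 17, 10 and 9 in cKO. Gbx2, which specifies thalamic neurons, was longer in every WT library by a small amount, with 9546, 8158 and 8164 bp against 7428, 7856 and 7567 bp. It was 1 of the 8 factors marked in every WT library (12.5%, against 3.55% of all genes so marked). Rora, an orphan nuclear receptor active in adult thalamic relay neurons, had 572, 0 and 712 bp in WT and 15785, 0 and 0 bp in cKO, so that nearly all of its length lay in cKO replicate 1. Slc17a6, which encodes Vglut2 and whose promoter drove Cre, had 1006, 0 and 1023 bp in WT and 292, 743 and 0 bp in cKO. The gene of the other main vesicular glutamate transporter, Slc17a7, had 5376, 3822 and 5649 bp in WT and 4095, 3289 and 1751 bp in cKO, with WT replicate 2 inside the cKO range. The glutamate, GABA and glycine identity genes had a peak in 9, 5 and 7 of 10 members in WT and 10, 8 and 7 in cKO. When cKO replicate 1 was left out, 3 of the 8 thalamic factors (37.5%) and 3 of the 5 transmitter identity genes (60%) that were marked in every WT library were longer in WT, against 30.7% of all genes.

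Receptors and neuropeptides, which carry signals between these neurons, were families in which cKO replicate 1 stood far from the other libraries. Ionotropic and metabotropic glutamate receptors were marked in 12, 12 and 8 of 26 members in WT and 25, 8 and 9 in cKO, with 21.4, 10.8 and 7.33 kb against 86.4, 8.2 and 3.29 kb. The log2 ratio of their length was 1.31 with all libraries and -1.20 without cKO replicate 1. GABA receptors were marked in 3, 2 and 3 of 21 members in WT and 14, 0 and 1 in cKO, and cholinergic receptors in 7, 6 and 6 of 21 in WT and 20, 7 and 6 in cKO. Chrna4, a subunit of the main nicotinic receptor of the brain, had 462, 0 and 0 bp in WT and 2030, 343 and 466 bp in cKO. Grm4, a presynaptic metabotropic receptor, had 2381, 727 and 800 bp in WT and 9478, 0 and 410 bp in cKO. Of the 94 receptor and peptide genes with a peak, 0 separated the genotypes with all libraries, against 0.607% of all genes toward WT and 0.54% toward cKO. When cKO replicate 1 was left out, 11 of the 28 marked in every WT library (39.3%) were longer in WT, against 30.7% of all genes so marked. Of the 55 that then had a peak, 2 (3.64%, near the 3.27% of all genes) were marked in every WT and no cKO library.

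Dopamine receptor and monoamine genes had a peak in 11, 10 and 10 of 17 members in WT and 16, 7 and 7 in cKO, and their median limma difference was -0.51, and -1.35 without cKO replicate 1, when 3 of the 8 marked in every WT library (37.5%, against 30.7% of all genes) were longer in WT. Drd1, the excitatory dopamine receptor, had 1210, 0 and 936 bp in WT and 1062, 0 and 0 bp in cKO. Slc6a2, the noradrenaline transporter and a target of cocaine, had 3126, 1377 and 1214 bp in WT and 3281, 719 and 0 bp in cKO. Cartpt, the precursor of the cocaine and amphetamine regulated transcript peptide, had 682, 0 and 604 bp in WT and 2094, 548 and 1356 bp in cKO, with overlap between 548 and 682 bp. Serotonin receptors had a peak in 8, 7 and 5 of 14 members in WT and 11, 4 and 4 in cKO. Of the opioid and Cart peptide genes, 4, 3 and 5 of 9 had one in WT and 7, 4 and 4 in cKO. Among potassium channels the members with a peak were 57, 38 and 44 of 92 in WT and 82, 46 and 30 in cKO. Kcnc4, a fast delayed rectifier, was longer in every cKO library, with 2148, 1497 and 1576 bp in WT and 5404, 2863 and 2188 bp in cKO, a cKO mean 2 times the WT mean and 1.45 times without cKO replicate 1. It was 1 of 83 members with a peak (1.2%, against 0.54% of all genes). Without cKO replicate 1 it was 1 of 66 (1.52%, near the 1.21% of all genes). Toward WT, 0 potassium channels separated the genotypes with all libraries, and when cKO replicate 1 was left out 10 of the 30 marked in every WT library (33.3%, against 30.7% of all genes) were longer in WT. Kcne3, a potassium channel beta subunit, had 2721, 2038 and 1610 bp in WT and 0, 1972 and 0 bp in cKO, with no peak in cKO replicate 1 despite the length of that list. Calcium and sodium channels had a peak in 27, 17 and 22 of 40 members in WT and 39, 16 and 14 in cKO, and axon guidance genes in 53, 38 and 43 of 74 in WT and 71, 38 and 33 in cKO. Of those marked in every WT library, 6 of 15 channels (40%) and 6 of 30 guidance genes (20%) were longer in WT when cKO replicate 1 was left out, against 30.7% of all genes. With all libraries 0 of the 15 and 0 of the 30 were, against 3.55% of all genes.

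Clustered protocadherins give neurons their surface identity, and their genes overlap, so that 1 peak counts for many members. They were marked in 35, 21 and 33 of 57 members in WT and 37, 21 and 0 in cKO. Immediate early genes, which neurons switch on with activity, had a peak in 15, 12 and 13 of 20 members in WT and 19, 12 and 12 in cKO. Fos had 1036, 170 and 1238 bp in WT and 2417, 749 and 136 bp in cKO, and Egr1 had 1469, 867 and 376 bp in WT and 1507, 0 and 0 bp in cKO. Ribosomal protein genes, which all cells use, had a peak in 4, 2 and 0 of 84 members in WT and 25, 1 and 2 in cKO, and olfactory receptors, which the thalamus does not use, in 5, 2 and 7 of 1106 in WT and 78, 5 and 6 in cKO. These families were nearly free of peaks in 5 libraries, and 25 of the 84 ribosomal protein genes were marked in cKO replicate 1.

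H2Aub peaks do not measure expression, so the label of the tissue cannot be checked from marker genes as it would be with RNA. The markers of 6 genes per cell type gave the following numbers of marked members. Glutamatergic neuron markers had a peak in 4, 2 and 3 members in WT and 6, 3 and 2 in cKO. Astrocyte markers had one in 6, 3 and 3 members in WT and 5, 4 and 1 in cKO, oligodendrocyte markers in 2, 0 and 0 in WT and 4, 0 and 0 in cKO, microglia markers in 3, 3 and 2 in WT and 6, 1 and 1 in cKO, and endothelial markers in 2, 2 and 4 in WT and 6, 2 and 2 in cKO. Of the 28 markers with a peak, 0 separated the genotypes with all libraries, near the 0.607 and 0.54% of all genes. The microglia markers summed to 1.19, 0.895 and 0.784 kb in WT and 4.64, 2.02 and 0.408 kb in cKO, with the 2.02 kb of cKO replicate 2 on 1 gene and cKO replicate 3 below every WT library. The log2 ratio of their mean was 0.34 to 2.46 over the settings run, and their median limma difference was -0.62 without cKO replicate 1. The oligodendrocyte markers had no peak in cKO replicates 2 and 3, so that their summed length was higher in cKO in the settings with cKO replicate 1 and lower without it, at 0 kb against a WT mean of 0.163 kb. Without that library 2 of the 8 markers with a peak in every WT library (25%, against 30.7% of all genes) were longer in WT, and both were glutamatergic neuron markers. Their part in the results above was not tested.

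The libraries of mice given cocaine (20 mg/kg for 5 days) are other samples of the same genotypes, and the genes called after saline can be read there side by side. There were 3 WT and 2 cKO cocaine libraries, and cKO cocaine replicate 1 was also a long list. The means below include that list, and cKO cocaine replicate 2 is therefore also given alone against the WT cocaine mean, over the genes where the values differed. Of the 81 genes longer in WT after saline, 61 (75.3%) had the higher mean in WT after cocaine, and cKO cocaine replicate 2 alone lay below the WT mean in 75% of them. Over all genes with a peak after saline and a difference after cocaine, the WT mean was higher in 26.8%, and cKO cocaine replicate 2 alone lay below it in 71.8%. By this measure the 81 genes thus stood near all genes without the long list. That background takes in genes not marked in every WT library after saline. After cocaine every WT library was above every cKO library in 25 of the 81 genes, and below every cKO library in 2. Over all 13344 genes these counts were 383 and 755. Over the 699 genes longer in WT without cKO saline replicate 1 they were 74 and 33. Of the 72 genes longer in cKO after saline, 44 (61.1%) had the higher mean in cKO after cocaine, against 73.2% of all genes, and cKO cocaine replicate 2 alone lay above the WT mean in 36.6% and below it in 63.4%, against 28.2 and 71.8% of all genes. Of the 15 genes marked after saline in every cKO and no WT library, 13 had the higher mean in cKO after cocaine, while cKO cocaine replicate 2 alone lay above the WT mean in 8 and below it in 6. The 8 were 57.1% of the genes that differed, against 28.2% of all genes. The direction of the 72 genes after cocaine turned without cKO cocaine replicate 1, and that of the 15 genes was kept by a narrow count. For the calls made without cKO saline replicate 1, cKO cocaine replicate 2 lay above the WT mean in 8 and below it in 9 of the 18 genes marked in cKO only, and the WT cocaine mean was higher in 51.1% of the 699 genes longer in WT, where cKO cocaine replicate 2 alone lay below it in 78.6% of those that differed. Foxd1 had 11290, 9379 and 10282 bp in WT and 5372 and 9933 bp in cKO after cocaine, with overlap, where the saline libraries had 8646, 8167 and 10931 bp in WT and 5098, 8091 and 5342 bp in cKO. Scml4 had 2652, 1713 and 2216 bp in WT and 2272 and 2492 bp in cKO after cocaine, without the higher cKO mean of the saline libraries being seen at the same size.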

How the data were processed

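H2Aub ChIPmentation libraries of mouse thalamus were used, 3 WT saline and 3 cKO saline, with 5 cocaine libraries read beside them. The 4 input libraries were not analysed here. As its methods and the processing notes state, adapters were removed by the authors (Cutadapt v3), read pairs were aligned to mm10 (Bowtie2 2.3.4.1), and broad peaks of each library were called against input (MACS2 2.1.1.20160309.3), with no pooling of replicates. The submitters' processing notes also name SAMtools. The deposited lists gave peak start and end, the fold enrichment over input as a linear ratio, −log10 p and −log10 q, and a score of 10 times −log10 q. Fold, p and q were set within each library. The 6 saline lists hold peaks with q up to 0.0997, past the stated false discovery rate of 0.05. The share of peaks with q above 0.05 was 10.3 to 32.9% per list, and all peaks were used. The study states a minimum number of reads for all samples, but the lists gave no read number per library, so depth per library was unknown and uncorrected, and a longer list can hold more marked chromatin or more reads.

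Gene windows were the body of 21887 protein-coding RefSeq genes (GRCm38.p6, the coordinates of mm10) plus 5 kb on each side, with at least 1 bp under a peak counted as marked. The table used gives no strand, so start sites were not told apart from gene ends. Totals per library were set against each other in two-sided exact permutation tests. Presence and non-overlapping length were call rules with no p. Some genes within the counts are not reported here by name. Lengths were also fitted with limma (3.58.1, R 4.3.3, eBayes with trend) on log2(bp + 100), which understates changes at short lengths, for genes with a peak in at least 2 of the 6 libraries, with a Benjamini-Hochberg adjusted p of 0.05 as the threshold. Python 3.11.15, numpy 2.4.6 and pandas 2.3.3 did the rest. The computation of length under peaks and the limma fit were tested on simulated data, and the other steps were not.

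The genes named were up to 12 per direction marked in every library of one genotype and none of the other, by mean length; up to 8 per direction marked in all 6 libraries with no overlap in length, by ratio; up to 8 called by presence only without cKO replicate 1; up to 3 per family with the largest difference in number of libraries; Maged1, Usp7, Rnf2, C1ql3, Hopx and Scml4; and the 5 lowest limma p per direction. From these and from the calls within the families, the text takes those that describe each group. The comparison, the families and the tests were chosen with earlier results of these data known. Alternatives were peaks with q at most 0.05, equal numbers of peaks (7271 with the highest −log10 p), gene bodies alone, all 49943 genes, an overlap of 100 bp, length as a share of the library total, pseudocounts of 10 and 1000 bp, a filter of 1 library, a replicate block, and leaving out each library. The limma fits without a trend and with each gene's own variance were chosen after seeing the data.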

Additional observations from a re-analysis of the deposited data

Results flagged for a closer look

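Calcoco2, an autophagy receptor, moved in opposite directions in the saline and the cocaine libraries. After saline every cKO library had more length than every WT library, with 647, 179 and 596 bp in WT and 2769, 702 and 679 bp in cKO, a log2 ratio of 1.37 between the means after 100 bp was added to each. After cocaine every WT library had more, with 2884, 1374 and 1924 bp in WT and 1033 and 510 bp in cKO, a log2 ratio of -1.31 on the same scale. The difference between these ratios was not tested. Without cKO saline replicate 1 the saline ratio of means was 1.46 on the linear scale with nothing added, and the lowest cKO value of 679 bp lay just above the highest WT value of 647 bp.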

How the results depend on the processing

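The lists hold no read numbers, and the sign of the difference in genes with a peak (log2 0.28) and in length under peaks (0.20) rested on cKO replicate 1. Leaving out each library in turn gave -0.41 to 0.70 for the first and -0.46 to 0.72 for the second, with -0.02 without WT replicate 2, and equal numbers of peaks gave -0.55 for the second. Genes marked in every cKO and no WT library (15) became 27 with equal numbers of peaks, 25 with gene bodies only, 46 over all genes and 18 to 233 when libraries were left out. Genes marked in every WT and no cKO library (5) became 50 with equal numbers, 14 over all genes and 5 to 227 when libraries were left out. Genes longer in cKO (72) became 159 over all genes, 123 as a share of the library length and 84 to 874 when libraries were left out. Genes longer in WT (81) became 337 with equal numbers, 152 over all genes, 276 as a share and 84 to 699 when libraries were left out. The limma call of 1 gene higher in cKO became 0 with q at most 0.05, equal numbers, gene bodies only, the share, a pseudocount of 1000 bp, a filter of 1 library, a prior without a trend and each gene's own variance, and 0 to 1 when libraries were left out. Toward WT, 0 became 0 to 3 when libraries were left out. With each gene's own variance and without cKO replicate 1, limma called 3 genes higher in cKO and 0 in WT. Iqgap2 turned to -0.31 (log2) with equal numbers of peaks. Of 33 named calls, 11 held with equal numbers of peaks, 20 with gene bodies only, 19 with q at most 0.05 and 29 as a share. The causes were not tested. The summed length of a family changed sign in 19 of 41 families without cKO replicate 1, in 19 of 42 with equal numbers of peaks and in 14 of 43 as a share.

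The replicate numbers of the labels were shared by the genotypes, but the deviations of same-numbered libraries correlated at 0.163, -0.0808 and -0.0294, so that the numbers were not taken to pair the libraries. With the replicate block, limma called 0 genes higher in cKO and 0 in WT, and the paired differences were 0.28 and 0.20 (exact sign-flip permutation p = 0.75 for both).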
